A study of Mus musculus with 2 samples.

Results

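The ABC transporter genes of mouse mammary carcinoma cells were compared between 2 cell populations measured on Affymetrix expression arrays. The liver metastatic cells of the 4T1-3R line, written 4T1-3R_L, were isolated from liver metastases in an in vivo experiment. They derive from 4T1, a mammary tumour line of BALB/c origin that spreads to distant organs, and the 4T1 parental cells were the comparison. Both populations were grown in culture without a labelled treatment, and 1 array was hybridised for each, so there is no spread between cultures, no test and no p-value. Every gene with a probe set annotated to a single symbol of the ABC subfamilies A to G was taken, which gave 45 members among 18193 genes on the array. The family members Tap1, Tap2 and Cftr carry other symbols and were set beside the 45 as a separate list.

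ABC proteins bind and hydrolyse ATP at a conserved pair of nucleotide-binding domains, and most couple this to moving a substrate across a membrane. In tumour cells the best known members are the plasma membrane pumps that export cytotoxic drugs, among them P-glycoprotein, the multidrug resistance-associated proteins and the breast cancer resistance protein. Others move cholesterol and phospholipids out of cells, carry metabolites across mitochondrial, peroxisomal and lysosomal membranes, or, in subfamilies E and F, have no membrane domain and act in translation.

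Signals are MAS5 values on a linear scale. Each gene is read from the brightest of its probe sets by mean log2 signal, and any signal lower than 90.6, which is the median over both arrays and serves as a floor, was raised to it before taking the log2 ratio of 4T1-3R_L over parental. A gene counts as measured if that probe set was at or over the floor on either array. Against a signal under the floor only a lower bound of the fold can be had, which is written "at least". Signals of different probe sets are not on a common scale and are not compared between genes.

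All 6 carcinoma epithelium markers were measured on both arrays, with a summed signal of 61894.6 in 4T1-3R_L cells and 77980.8 in parental cells, carried mainly by the keratins Krt8 and Krt18. Within it Epcam was at 1776.3 in 4T1-3R_L cells and 7535.7 in parental cells (log2 ratio -2.08), and Cdh1 had a log2 ratio of -0.99. Such sums only describe a marker list, since probe sets differ in scale. Of 6 hepatocyte markers with a probe set, 0 were measured, and their summed signals were 153.6 in 4T1-3R_L cells and 152.2 in parental cells. Alb and Apoa1 were far under the floor on both arrays. Hepatocytes express the ABC family strongly, and any part of theirs in the results was not tested. Endothelial, leukocyte and erythroid markers were likewise all under the floor. Of 6 macrophage markers 2 were measured, Cd68 at 374 in 4T1-3R_L cells and 388 in parental cells, and Csf1r at 88.1 in 4T1-3R_L cells and 1026.4 in parental cells. The summed macrophage signal was 636.7 in 4T1-3R_L cells and 1506.5 in parental cells, and its part in the results was not tested. Of 7 stellate cell and fibroblast markers 1 was measured, Des, which reached the floor in parental cells, and the sums were 295.9 in 4T1-3R_L cells and 398.8 in parental cells. Of 2 cholangiocyte markers with a probe set, Sox9 was measured, with a signal of 1169.5 in 4T1-3R_L cells and 642.1 in parental cells.

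The largest difference among the 26 measured ABC genes was in a drug pump, Abcg2, which was 7.65-fold lower in 4T1-3R_L cells, while the P-glycoprotein gene Abcb1b was 3.04-fold higher. Of the 26, 4 were at least 2-fold lower (15.4%, against 4.48% of all 11135 measured genes) and 3 at least 2-fold higher (11.5%, against 6.23%). Together 7 of 26 (26.9%) were at least 2-fold apart, against 10.7% of all measured genes. The median log2 ratio of the 26 was -0.03 beside -0.01 for all measured genes, with 13 members above and 13 below 0. For the 21 members that reached the floor on both arrays it was -0.22, beside -0.02 for all such genes. Of these members 9 were above and 12 below 0. Members therefore lay on both sides of the middle, as the histogram of all measured genes shows.

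**Figure D1:**
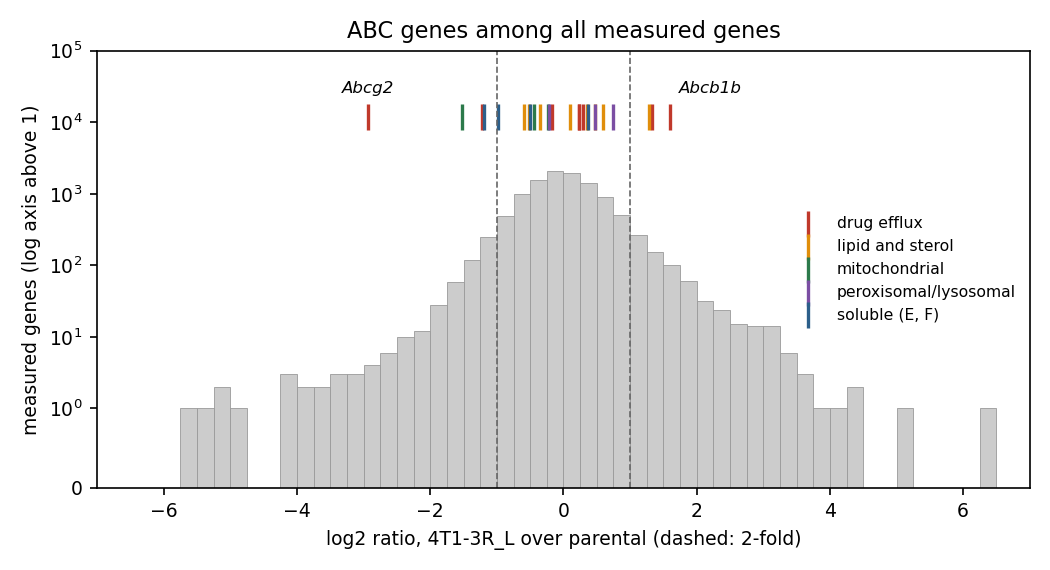
Grey bars count the 11135 measured genes by log2 ratio of 4T1-3R_L over parental (vertical axis logarithmic above 1), and coloured ticks above them place the 26 measured ABC genes by role. Abcg2 lies at -2.94, far to the left of the other members, and Abcb1b at 1.61 is the highest at this floor, though Abcg1, a lower bound here, reached 1.97 with the floor at the 40th percentile.

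Of the 26 measured members, 5 passed only through the array on which they were higher, which were Abcb1a, Abca1, Abcb9 and Abcg1 in 4T1-3R_L cells and Abcg8 in parental cells. Among the 21 members above the floor on both arrays, 4 were at least 2-fold lower (19.0%, against 4.38% of 10070 such genes) and 1 was at least 2-fold higher (4.76%, against 5.81%). The share of higher members was thus near that of all genes once the floor had to be reached on both arrays. Scaling the arrays to the hybridisation controls, labelled cRNAs added to the mix, moved the median of all measured genes to -0.54 and gave 8 members at least 2-fold lower and 1 higher, against 20.2% and 2.21% of all genes. Under it Abcb1a (0.80) and Abcg1 (0.99) came under 2-fold on the log2 scale and Abcb1b stayed just past it (1.03).

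**Figure D2:**
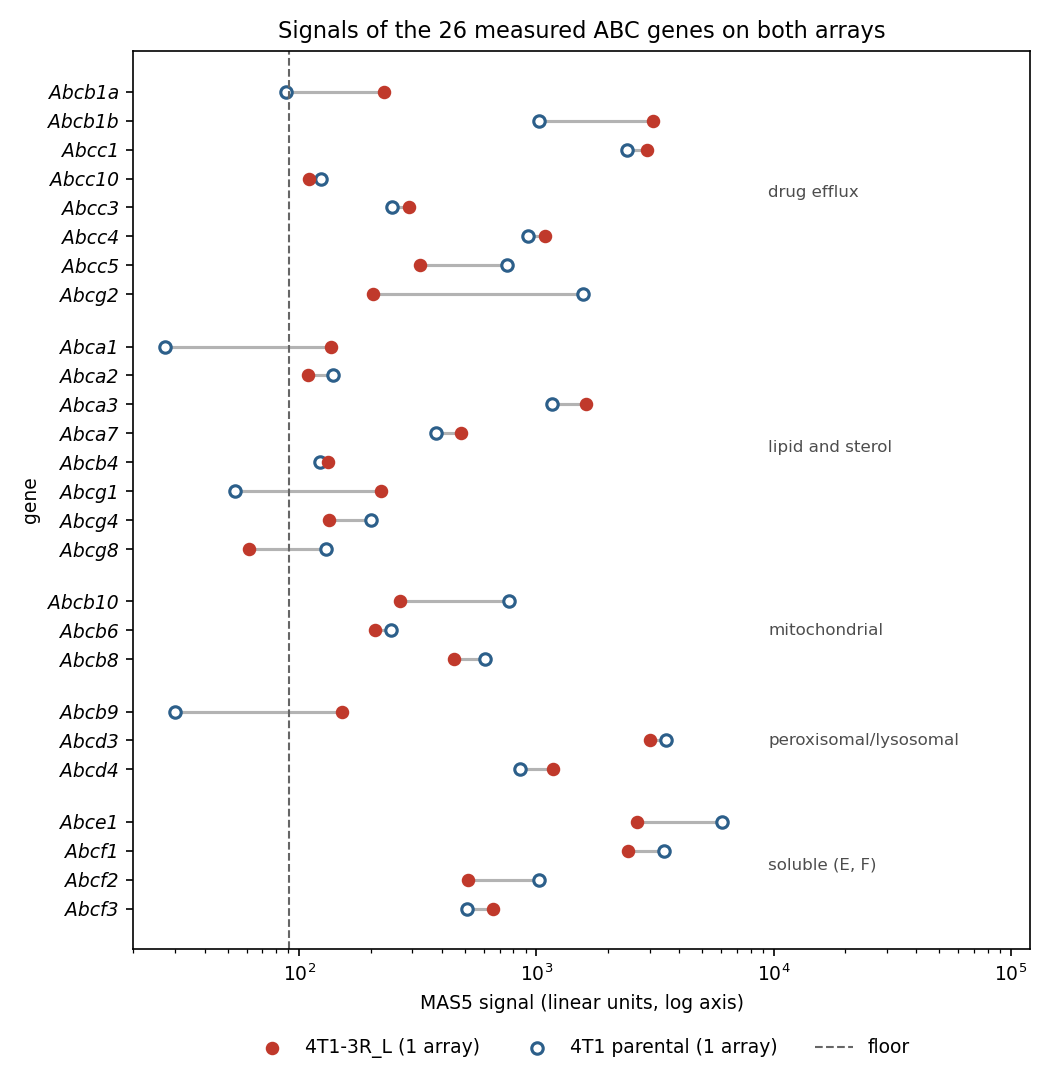
Signals of the 26 measured ABC genes on the 4T1-3R_L array (filled) and the parental array (open), on a log axis, grouped by role, with the floor of 90.6 dashed. Among genes with both signals over the floor, Abcg2 has the longest line, at 205.3 in 4T1-3R_L cells and 1570.9 in parental cells.

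Of the 9 genes listed as drug efflux pumps, 8 were measured, with 2 at least 2-fold lower (25%, against 4.48% of all measured genes), 2 at least 2-fold higher (25%, against 6.23%) and 4 between. Of the 2 higher, Abcb1a was measured through its 4T1-3R_L signal alone, so its direction follows from the filter. Of the 2 lower, Abcc5 rests on 1 of 10 probe sets. Hybridisation control scaling left 2 of the 8 lower and 1 higher, against 20.2% and 2.21% of all genes. Under it the 25% of pumps that were lower was thus near the share of all genes. Abcg2 encodes the breast cancer resistance protein, which exports mitoxantrone, topotecan, porphyrins and the Hoechst dye used to sort side population cells. Its signal was 205.3 in 4T1-3R_L cells and 1570.9 in parental cells, a log2 ratio of -2.94 and the 21st lowest of all measured genes. Both signals were above the floor, but Abcg2 has only 1 probe set on the array, so there is no second reading of it. It was the 1 member at least 4-fold lower, where 0.449% of all measured genes were.

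Mouse cells have a pair of P-glycoprotein genes, Abcb1a and Abcb1b, where humans have a single one, and both export a wide range of hydrophobic drugs. Abcb1b had a signal of 3110.8 in 4T1-3R_L cells and 1022.6 in parental cells, a log2 ratio of 1.61. Abcb1a had 228.5 in 4T1-3R_L cells against 88.3 in parental cells, just under the floor, so it was at least 2.52-fold higher. Both P-glycoprotein genes were thus on the opposite side from Abcg2. For Abcb1a, measured through its 4T1-3R_L signal alone, that direction follows from the filter. The second probe set of Abcb1a read 95.4 in 4T1-3R_L cells and 34.8 in parental cells, a floored log2 ratio of 0.07. Raising the floor to the 60th percentile brought the first probe set to 0.44. The second probe set of Abcb1b was under the floor on both arrays. Probe sequences were not used here, so how far the probe sets tell these closely related genes apart was not tested.

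The sequences upstream of these 3 pump genes are shown because Abcg2 and Abcb1b differ most among the pumps, and Abcb1a lies beside Abcb1b and was also higher. Each is the 250 bases before the RefSeq transcription start in GRCm38.p6, 5′ to 3′ on the + strand. They are chr6:58640296-58640545 for Abcg2, the last of 3 annotated starts, chr5:8566841-8567090 for Abcb1a and chr5:8797897-8798146 for Abcb1b. Capitals mark matches, on either strand, to 6 motifs known from promoters of drug pumps and stress genes. The CCAAT box was searched as CCAAT, and the GC box, which binds Sp1, was searched as GGGCGG. The TATA box was searched as TATAAA, and the core of the hypoxia response element was searched as ACGTG. The AP-1 site was searched as TGANTCA, and the core of the antioxidant response element was searched as TGACNNNGC.
Abcg2: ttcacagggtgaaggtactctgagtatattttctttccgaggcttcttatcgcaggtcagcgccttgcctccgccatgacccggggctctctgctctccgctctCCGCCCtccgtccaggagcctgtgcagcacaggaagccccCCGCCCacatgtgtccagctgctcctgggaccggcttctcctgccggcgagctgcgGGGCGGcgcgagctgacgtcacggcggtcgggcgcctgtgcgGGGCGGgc
Abcb1a: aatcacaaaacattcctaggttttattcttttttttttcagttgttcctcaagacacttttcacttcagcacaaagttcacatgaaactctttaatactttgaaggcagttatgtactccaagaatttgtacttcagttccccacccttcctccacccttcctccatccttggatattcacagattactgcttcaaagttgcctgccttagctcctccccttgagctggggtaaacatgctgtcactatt
Abcb1b: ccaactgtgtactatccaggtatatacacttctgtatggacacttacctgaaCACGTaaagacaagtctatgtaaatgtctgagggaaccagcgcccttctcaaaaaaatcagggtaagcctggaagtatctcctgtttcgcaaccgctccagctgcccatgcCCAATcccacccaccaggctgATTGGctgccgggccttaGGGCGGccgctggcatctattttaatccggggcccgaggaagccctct
The Abcg2 window holds 4 GC boxes, a motif found in 33.0% of 32536 mouse windows of this length, and has a GC content of 67.6%. The Abcb1b window holds 2 CCAAT boxes, one on each strand, at -87 and -66 from the start, a GC box at -48 and a hypoxia response core at -198. A CCAAT box occurs in 33.8% of all windows and a hypoxia response core in 16.7%. None of the 6 motifs is in the Abcb1a window, whose GC content is 40.4% against 52.8% for Abcb1b, so the windows shown for the pair share no match. Only 1 annotated start of Abcb1a was at hand, and any other start it may use was not searched. The middle of the 3 Abcg2 starts has 2 GC boxes and the first has no match. The TATA box (12.3% of all windows), the AP-1 site (6.73%) and the antioxidant response core (10.2%) are in none of these windows. In the Abcg2 window no matches overlap, and none do in the Abcb1b window.

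The pumps of subfamily C export glutathione, glucuronide and nucleotide conjugates, and those on the drug efflux list gave smaller ratios. Abcc5, an exporter of cyclic nucleotides and nucleoside analogues, had a signal of 323 in 4T1-3R_L cells and 755.1 in parental cells, 2.34-fold lower. This call rests on 1 of 10 probe sets. The other 5 that were measured had log2 ratios between -0.17 and 0.50, the second by signal read 467 in 4T1-3R_L cells and 471.3 in parental cells, and 4 were under the floor.

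Abcc1, which exports glutathione conjugates and anthracyclines, had 2932.1 in 4T1-3R_L cells and 2399.9 in parental cells, a log2 ratio of 0.29, whereas its second probe set gave -0.49. Abcc3, an exporter of glucuronides, had 289.4 in 4T1-3R_L cells and 245.2 in parental cells. Abcc4, which exports cyclic nucleotides and prostaglandins, had 1085.2 in 4T1-3R_L cells and 919.6 in parental cells. Both lay at a log2 ratio of 0.24, and neither has a second probe set. Abcc10, linked to taxane resistance, had 109.5 in 4T1-3R_L cells and 123.1 in parental cells, close to the floor. Abcc2, the pump of the bile canaliculus, was under the floor on both arrays, at 17.7 in 4T1-3R_L cells and 13.1 in parental cells. None of these 5 genes was 2-fold apart.

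Of 11 genes for lipid and sterol transport, 8 were measured, 1 was past 2-fold on the higher side (12.5%, against 6.23% of all measured genes) and 0 on the lower side (against 4.48%). The lower count became 1 once the floor was lowered to the 40th percentile (Abcg8, -1.08), against 4.39% of all genes at that floor. Under hybridisation control scaling 1 of 8 was lower (Abcg4, -1.17), against 20.2% of all genes, and 0 were higher, against 2.21%. Abcg1, which passes cholesterol to high-density lipoprotein, had 220.2 in 4T1-3R_L cells and 53.5 in parental cells, at least 2.43-fold higher. Raising the floor to the 60th percentile took its log2 ratio of 1.28 to 0.38, and its second probe set was under the floor on both arrays. Abca1, which loads cholesterol and phospholipid onto apolipoprotein A-I, had 136.4 in 4T1-3R_L cells and 27.2 in parental cells, at least 1.51-fold higher. Its log2 ratio of 0.59 became 1.27 once the floor was lowered to the 40th percentile and 1.51 with a pseudocount, and its other probe sets were under the floor. Both were counted as measured through their 4T1-3R_L signal alone, so a higher value there follows from the filter.

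The other measured lipid transporters lay between log2 ratios of -0.59 and 0.48. Abca3, which fills surfactant-storing organelles with phospholipid, was at 1616 in 4T1-3R_L cells and 1158.7 in parental cells, but its 2 other probe sets had negative log2 ratios of -0.42 and -0.17. Abca7, a phospholipid transporter of macrophages and brain, was at 481.9 in 4T1-3R_L cells and 377.4 in parental cells. Abcb4, which moves phosphatidylcholine into bile and lies beside Abcb1b on chromosome 5, had a log2 ratio of 0.10. Abca2 and Abcg4 were at -0.35 and -0.59. The sterol half-transporter Abcg8 had 61.3 in 4T1-3R_L cells and 129.9 in parental cells, at least 1.43-fold lower, whereas its obligate partner Abcg5 was under the floor on both arrays, as were Abca5 and Abca12.

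All 3 mitochondrial members analysed here had negative log2 ratios. Abcb10, an inner membrane protein needed for heme synthesis in red cell precursors, had 265.2 in 4T1-3R_L cells and 763.1 in parental cells, 2.88-fold lower. Its second probe set read 116.6 in 4T1-3R_L cells and 144.2 in parental cells, which is -0.31 in log2, so the call rests on 1 probe set. Abcb8, linked to mitochondrial iron export, had 447.7 in 4T1-3R_L cells and 605.9 in parental cells (log2 ratio -0.44). Its second probe set, at 96.6 in 4T1-3R_L cells and 198.3 in parental cells, was past 2-fold (-1.04). Abcb6, a porphyrin transporter, had 209 in 4T1-3R_L cells and 244.3 in parental cells.

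Of 4 peroxisomal and lysosomal members, 3 were measured and none was 2-fold apart. Abcd3, which imports branched fatty acids and bile acid precursors into peroxisomes, had 3021.1 in 4T1-3R_L cells and 3515.9 in parental cells, a log2 ratio of -0.22. Abcd4, which acts in the release of vitamin B12 from lysosomes, had 1174.1 in 4T1-3R_L cells and 849.2 in parental cells (0.47, second probe set 0.05). Abcd2, an importer of very long chain fatty acids, was under the floor on all of its 4 probe sets. Abcb9, a lysosomal peptide transporter related to the TAP proteins, had 151.3 in 4T1-3R_L cells and 29.9 in parental cells, at least 1.67-fold higher. At the floor used it is the member nearest to 2-fold from below on the higher side and Abcg1 the nearest above, but both are lower bounds. Abcb9 passed 2-fold once the floor was lowered to the 40th percentile (log2 ratio 1.42).

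The 4 soluble members, which have no membrane domain, were all above the floor on both arrays, with a median log2 ratio of -0.75. Abce1, which splits ribosomes after termination and also inhibits RNase L, had 2646.8 in 4T1-3R_L cells and 6073.5 in parental cells, 2.29-fold lower. Its 2 other probe sets gave log2 ratios of -1.36 and -0.61, all 3 negative and 2 of them past 2-fold. Abce1 was the 1 called member with a second measured probe set that was past 2-fold in the same direction. Abcf2 had 515.4 in 4T1-3R_L cells and 1023.7 in parental cells, a log2 ratio of -0.99 just short of 2-fold. Its second probe set gave -0.15. It is the nearest member under 2-fold on the lower side, and Abce1 is the nearest past it.

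Abcf1, which promotes translation initiation, had 2427.5 in 4T1-3R_L cells and 3454.8 in parental cells, a log2 ratio of -0.51. Of its 6 probe sets, all measured, 5 were negative and 1 positive, with the others between -0.95 and 0.27. Abcf3, related to a yeast activator of the amino acid starvation kinase, went the other way at 656.6 in 4T1-3R_L cells and 511 in parental cells (0.36), with its 2 other probe sets at -0.49 and 0.42. The soluble proteins were therefore not uniform.

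Probe sets of 1 gene check the array and not the cells. Of the 92 probe sets of the 45 members, 48 were measured, of which 6 were at least 2-fold lower (12.5%, against 4.74% of all measured single-gene probe sets) and 3 at least 2-fold higher (6.25%, against 5.69%). Of the 11 members with a second measured probe set, 8 had the same sign on both (72.7%, against 69.9% of 5377 genes). All 4 called members in this group, Abcb10, Abcb1a, Abcc5 and Abce1, had the same sign on the second probe set, as did 591 of 628 called genes overall. For Abcc5 that second value is -0.01, and 3 of its 5 other measured probe sets were positive. For Abcb1a only the 4T1-3R_L signal reached the floor, so its second ratio could not be negative. Of the 4, 1 was again past 2-fold (25%), against 42.4% of called genes overall. Abcg2, Abcb1b and Abcg1 have no such check. The median size of the difference between the first and second probe set was 0.84 on the log2 scale, against 0.35 for all genes.

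**Figure D3:**
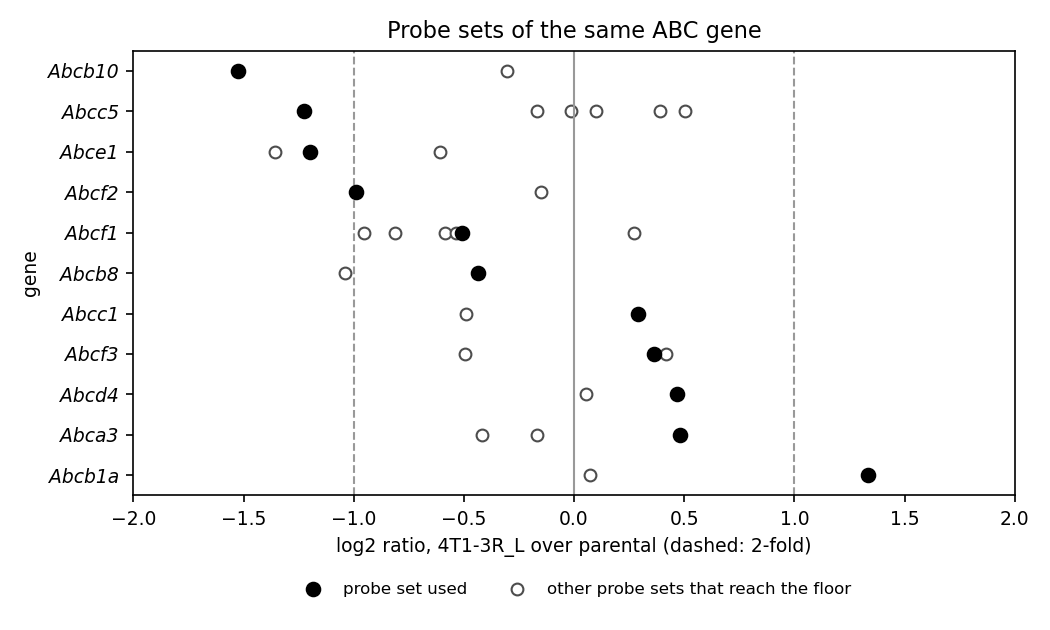
Log2 ratio of 4T1-3R_L over parental for every measured probe set of the 11 ABC genes with more than 1, with the probe set used filled, the others open and 2-fold dashed. The 3 probe sets of Abce1 lie together on the lower side, while the other 5 of Abcc5 lie between -0.17 and 0.50, away from the one used.

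The 7 members past 2-fold differed in how they held under other settings. Abcg2 and Abce1 stayed at least 2-fold lower under every alternative that gave a value, with log2 ratios from -3.51 to -2.76 for Abcg2 over 10 and from -1.77 to -1.18 for Abce1 over 11. Some alternatives could not move them. Abcg2 has 1 probe set and both signals above every floor. The other floors, the median over probe sets and plain _at probe sets therefore returned its main value. The other floors likewise left Abce1 unchanged. Abcb1b stayed at least 2-fold higher under 9 of 10, the exception being the median over its probe sets (0.80). Abcb10 stayed past 2-fold under 9 of 11, Abcc5 under 8 of 11, Abcb1a under 7 of 11 and Abcg1 under 7 of 10. These tallies also include settings that could not move the gene. The other floors left Abcb1b, Abcb10 and Abcc5 at their main values. Plain _at probe sets did so for Abcb1b, Abcb10, Abcb1a and Abcg1.

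**Figure D4:**
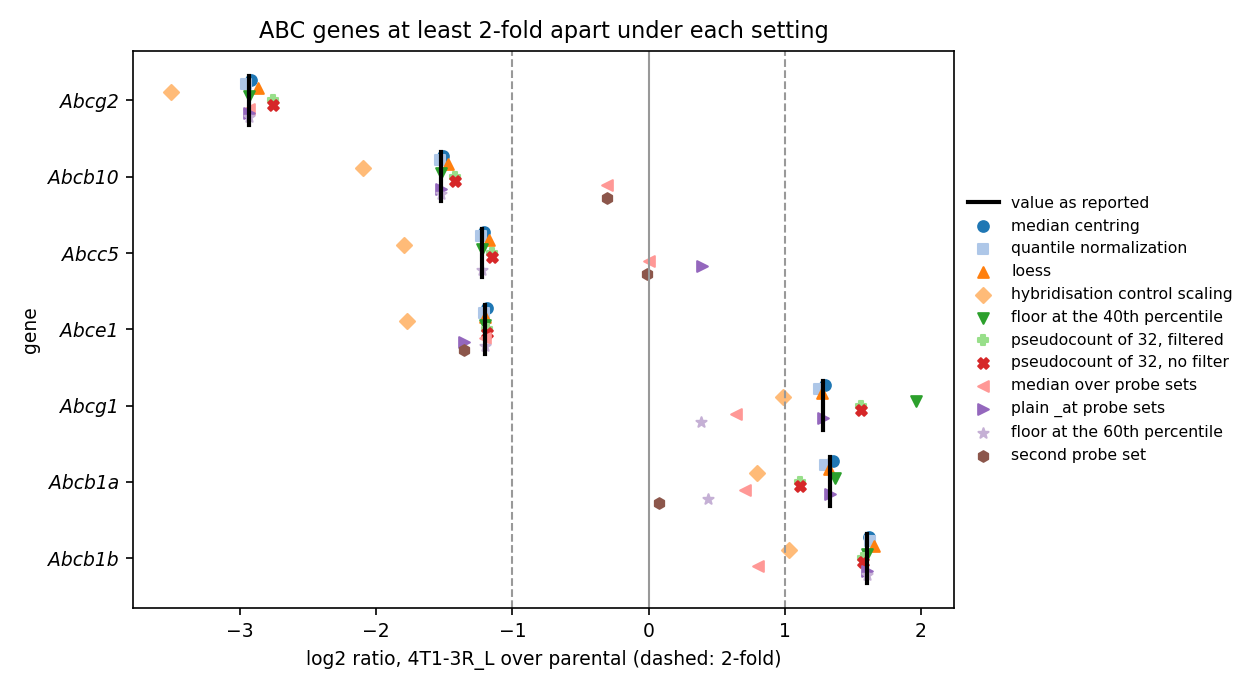
Log2 ratio of 4T1-3R_L over parental for the 7 ABC genes at least 2-fold apart, with the value as reported as a black bar and each alternative setting as a symbol, 2-fold dashed. Abcg2 stays at or below -2.76 throughout, while the values of Abcc5 run from -1.80 to 0.39.

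The 19 members that were not measured had signals between 2.7 and 84 (median 25.9) in 4T1-3R_L cells and between 2.4 and 65.1 (median 25.1) in parental cells. They include 10 of 14 members of subfamily A, among them the retinal transporter Abca4 and Abca5, Abca6, Abca8a, Abca8b and Abca9, which lie next to each other on chromosome 11. The bile salt pump Abcb11 had 27.1 in 4T1-3R_L cells and 20.5 in parental cells, and the sulfonylurea receptors Abcc8 and Abcc9, subunits of ATP-sensitive potassium channels, were also under the floor. The rest were Abca12, Abca13, Abca14, Abca16, Abcc2, Abcc6, Abcc12, Abcd2, Abcg3 and Abcg5. A signal under the floor does not show that a gene was silent. By subfamily, 4 of 14 were measured in A, 7 of 8 in B, 5 of 10 in C, 2 of 3 in D, 1 of 1 in E, 3 of 3 in F and 4 of 6 in G.

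Among ABC genes with other symbols, the antigen peptide transporter subunit Tap1 had 423.7 in 4T1-3R_L cells and 195.3 in parental cells, 2.17-fold higher. The second probe set of Tap1 was under the floor on both arrays. Tap2 was at 736.5 in 4T1-3R_L cells and 539.3 in parental cells, a log2 ratio of 0.45. The chloride channel gene Cftr was under the floor.

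Genes around the transporters were described by list. Of 11 measured nuclear receptor and stress regulators of ABC genes, 0 were 2-fold apart, against 10.7% of all measured genes. Positive ratios were seen in 8, and in 5509 of all 11135 measured genes. Under hybridisation control scaling, which lowered the median of all genes to -0.54, 4 were positive. The list's median log2 ratio lay 0.38 above that of all measured genes, and 0.34 above under that scaling. Hif1a, at 0.80, was past 2-fold on its second probe set (1.04). The xenobiotic receptors Nr1i2 and Nr1i3 and the sterol receptor Nr1h3 were under the floor on both arrays. Of 16 measured drug resistance genes outside the family, 2 were at least 2-fold higher (12.5%, against 6.23% of all measured genes), the aldehyde dehydrogenase Aldh3a1 (422.5 in 4T1-3R_L cells and 144.1 in parental cells) and the cytidine deaminase Cda (1017.5 in 4T1-3R_L cells and 443.6 in parental cells). Of 11 measured carriers outside the family, most of them for uptake, 1 was at least 2-fold higher (9.09%, near the 6.23% of all genes), the prostaglandin carrier Slco2a1 (2.44-fold, with its second probe set at 0.57 in log2).

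Of 11 measured sterol handling genes, 2 were at least 2-fold higher (18.2%, against 6.23% of all measured genes) and 0 lower. The cholesteryl ester hydrolase Nceh1 had 1362.1 in 4T1-3R_L cells and 530.2 in parental cells (2.57-fold, with its second probe set at 1.16 in log2), and the lysosomal cholesterol transporter Npc1 had 266.1 in 4T1-3R_L cells and 112.1 in parental cells (2.37-fold). The list's median log2 ratio lay 0.57 above that of all measured genes, and 0.59 above under hybridisation control scaling. Of 18 measured partners of ABC proteins, 1 was at least 2-fold lower (5.56%, near the 4.48% of all genes), the potassium channel pore Kcnj11, at 110 in 4T1-3R_L cells and 322.7 in parental cells, whose sulfonylurea receptor subunits were under the floor. The second probe set of Kcnj11 was under the floor on both arrays. Under hybridisation control scaling none of the genes on these lists was at least 2-fold higher, against 2.21% of all genes. Of the partners 5 were then at least 2-fold lower, of the carriers outside the family 4 and of the regulators 1, against 20.2% of all genes. No drug resistance or sterol handling gene was.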

How the data were processed

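Total RNA of each cell population was converted to biotin-labelled cRNA and hybridised, per the labels' protocols. The deposited intensities are linear probe set signals made with MAS5, per the submitters' processing notes. Its version, scaling target and detection calls: not given in the sources used here. In all, the table holds 45101 probe sets, 64 of them controls, and their mean after a 2% trim of both tails was 500.003 on each array, so no rescaling was applied. With 1 array a group there was no test. Precision is limited by the number of arrays.

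From these, floored log2 ratios were computed with Python 3.11.15 and pandas 2.3.3, and the procedure was tested on simulated data. Names came from the platform annotation, with 34945 single-gene probe sets. All 45 ABC members had their Entrez identifier in the RefSeq table of GRCm38.p6 and 0 needed a new symbol. Upstream sequences are RefSeq's, same build, which the array annotation does not name. The members and gene lists were chosen with earlier results of these data known. Full values are given for the drug pumps, every member at least 2-fold apart, subfamilies D to F, the mitochondrial members and those nearest 2-fold, and by the same fold for other lists; members named beyond this were picked with their values in view. The 11 alternatives change scaling, floor, filter or probe set.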

Additional observations from a re-analysis of the deposited data

How the results depend on the processing

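Median centring, quantile normalization and loess kept the counts of 4 ABC members at least 2-fold lower, 3 higher and 2 drug pumps lower, and the family median, at -0.03 relative to all measured genes, lay between -0.09 and -0.03. Under these 3 scalings 3.88% to 4.44% of all genes were lower and 6.14% to 6.65% higher. Scaling to the hybridisation controls gave 8 lower and 1 higher, with 20.2% and 2.21% of all genes. A floor at the 40th percentile gave 5 of 31 lower, with Abcg8 added (-1.08), and 5 higher, with Abca1 and Abcb9 added. Of all genes 4.39% were lower and 6.31% higher at that floor. At the 60th percentile 4 of 20 were lower and 1 higher, with Abcb1a and Abcg1 lost, against 4.41% and 5.83% of all genes. Abcg8, Abca1, Abcb9, Abcb1a and Abcg1 each had 1 signal under the main floor. A pseudocount of 32 gave 4 lower and 5 higher, of 26 members with the filter and of 45 without it. Of all genes 4.51% were lower and 6.61% higher with the filter, and 3.51% and 4.94% without it. The median over probe sets gave 2 of 26 lower, 0 higher and 1 of 8 pumps lower, against 3.31% of all genes lower and 4.03% higher. It counts probe sets under the floor as ratios of 0. The second probe set, which 11 measured members have, gave 2 lower, 0 higher, 0 of 3 pumps lower and a relative median of -0.39. Of all genes with a second measured probe set 5.11% were lower and 5.50% higher on it. Plain _at probe sets gave 4 of 25 lower, 3 higher, 1 of 8 pumps lower and a relative median of 0.13. Of all genes 4.92% were lower and 6.02% higher on them. There Abcc5 turned to 0.39 on another probe set. No paired analysis was possible because each group has 1 array, and for the same reason no replicate could be left out. Low signals limit what can be read: of 45 members, 21 reached the floor on both arrays.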

Other observations

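The gene order around the P-glycoprotein pair was examined after the values were seen. On chromosome 5, in the order of protein-coding genes in the RefSeq table, Rundc3b, Abcb1a, Abcb1b and Abcb4 follow one another. Rundc3b, which encodes a RUN domain protein, had a signal of 1133.2 in 4T1-3R_L cells and 416.4 in parental cells, 2.72-fold higher. Of the 4, Rundc3b, Abcb1a and Abcb1b were thus at least 2-fold higher, where 6.23% of all measured genes were. These 4 genes were picked with their values in view, and Abcb1a was measured through its 4T1-3R_L signal alone. Their count is therefore no result about the region. Abcb1a is a lower bound, as is the 0.07 of its second probe set, and under hybridisation control scaling Rundc3b was at 0.87 and Abcb1a at 0.80, which leaves Abcb1b (1.03) past 2-fold. Beyond Rundc3b, Slc25a40 had a log2 ratio of -0.09 and Dbf4, a regulator of replication, -0.55. Beyond Abcb1b, Abcb4 was at 0.10, the peroxisomal carnitine transferase Crot at 0.51, Tmem243 at 0.21 and Dmtf1 at 0.25.

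Around Abcg2 on chromosome 6, the next gene, Herc3, had 427.7 in 4T1-3R_L cells and 351.2 in parental cells, a log2 ratio of 0.28. Nap1l5 and Fam13a beyond it were under the floor on both arrays, as were the vomeronasal receptor genes on the other side. The nearest measured gene on that side was Vopp1, 12 genes away, at 0.47.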
